A study of Homo sapiens with 9 samples.

Results

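The genes of the mitochondrial ribosome's proteins were taken from the count matrix by symbol, as every row that begins with MRPL or MRPS followed by a number and at most 1 letter from A to D. The rule found 78 of the 35876 symbols, 49 with MRPL symbols and 29 with MRPS symbols, and 76 of the 78 passed the filter on low counts. The RNA came from HEK293, an established line of human embryonic kidney cells, in 9 libraries with the genotypes CC_Cas9, CC_Cas9_Cre and CC_Cas9_Flpo. Each genotype has 3 libraries, numbered 1 to 3, and they are called Cas9, Cre and Flpo here. Every library therefore shares the prefix CC, which the labels leave unexplained, and Cas9, which cuts DNA where a guide RNA directs it. Cre and Flpo are recombinases that join or excise DNA at short recognition sites, and the series concerns a chemically controlled knockout that can be undone. No label gives the promoters of the constructs, an inducer, a time, a target gene or whether a genotype is 1 clone. The labels do not say whether the 3 libraries of a genotype came from separate cultures, so p-values measure only the spread between these libraries, which may be technical.

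Mitochondria hold a ribosome of their own that translates the few messages of the mitochondrial genome, which encode membrane subunits of the respiratory chain and of ATP synthase. Its ribosomal RNAs come from the mitochondrial genome, but all of its proteins are encoded in the nucleus, made in the cytosol and imported. The large subunit joins amino acids and holds the exit tunnel for the new chain, and the small subunit binds the message. Some of the proteins descend from bacterial ribosomal proteins and others were added in the evolution of mitochondria. MRPS18A and MRPS30 sit in the large subunit in spite of their symbols and were counted there. MRPS36 is also known as a part of the oxoglutarate dehydrogenase complex.

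Promoters were read for the letters of 3 motifs linked to nuclear genes of mitochondrial proteins: the 10-letter core of the factor NRF1, CCGGAAG (ETS factors such as GABP) and AAGATGGC (YY1), on both strands and with overlaps between motifs allowed. Windows from 250 bases before to 50 bases after the start were matched for 69 members in RefSeq's table for GRCh38.p14. At least 1 motif stood in the windows of 69.6% of these members, against 37.3% of the 8994 tested genes with a window and 20% of 27305 genes in all. The ETS letters were in 43.5% of members against 22.7% of tested genes, the YY1 letters in 30.4% against 6.83%, and the NRF1 letters in 13% against 13.7%. Of the members that were lower in Cre than in Flpo at an adjusted p under 0.05, 18 of 27 with a window held a motif, and of the other tested members 29 of 40. A match is a run of letters and not a measured binding site. Shown here are the 100 bases before the start of the 3 lower members, and of 1 member not past the threshold, whose stretch holds a motif and no annotated exon. Capitals mark the motif, NRF1's in MRPL34 and the ETS letters in the others. They lie at chr19:17305553-17305652 (plus strand), chr17:75012570-75012669 (plus strand), chr6:43687792-43687891 (minus strand) and chr13:40771191-40771290 (minus strand) of GRCh38.p14, and the motif begins 16, 8, 31 and 32 bases before a listed start, in the same order.
MRPL34: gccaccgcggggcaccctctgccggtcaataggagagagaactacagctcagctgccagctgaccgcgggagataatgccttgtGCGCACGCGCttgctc
MRPL58: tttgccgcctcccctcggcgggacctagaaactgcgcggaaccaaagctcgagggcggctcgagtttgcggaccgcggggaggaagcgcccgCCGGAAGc
MRPS18A: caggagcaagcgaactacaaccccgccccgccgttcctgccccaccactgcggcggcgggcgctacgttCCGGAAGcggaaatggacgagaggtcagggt
MRPS31: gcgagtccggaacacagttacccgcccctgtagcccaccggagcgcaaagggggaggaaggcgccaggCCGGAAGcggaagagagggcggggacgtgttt

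The libraries differed greatly in depth. Totals ran from 213907 estimated counts in Cre 2 to 8833491 in Flpo 1. Every Cre total and every Cas9 total lay below every Flpo total, so that depth and group cannot be told apart in either comparison with Flpo. Levels are in CPM, counts brought to a common library total and scaled by TMM factors, which lay between 0.663 and 1.32. A count of 3, the limit that a count of 0 allows, was worth 0.479 CPM in Flpo 3 and 11.2 CPM in Cre 2. Of the 78 members, 21 had no count in Cre 2, 4 in Cre 3 and 1 in Cas9 1, and under 10 counts were found for 59, 37 and 27 members in those libraries. The extraction text in the labels speaks of liver, but the liver gene ALB had no count outside Flpo 2, at 1.28 CPM, and the 10 liver genes summed to between 2.24 and 44.6 CPM. KRT8 and KRT18, keratins of epithelial cells, were present in every library, while the kidney gene PAX2 had no count outside Cas9 2.

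Together the 78 members held 0.459%, 0.430% and 0.444% of all counts in Cas9 1 to 3, 0.508%, 0.348% and 0.526% in Cre 1 to 3, and 0.651%, 0.380% and 0.686% in Flpo 1 to 3. Cre 2 and Flpo 2 were thus the lowest libraries, and the groups overlapped. The median member stood at 34.7 ± 14.7 CPM in Cas9, 16.6 ± 11.8 CPM in Cre and 64.6 ± 25.1 CPM in Flpo (SD, n = 3 each). In bulk samples like these, fewer cells of a type and less RNA per cell cannot be told apart. Per kilobase of transcript, over all 9 libraries, the highest mean level was that of MRPL49 (513 CPM per kilobase), followed by MRPL28 (304), MRPS16 (295), MRPL51 (216) and MRPS33 (208). The place of MRPL49 came from Flpo, where its mean was 1468 CPM per kilobase against 48.6 in Cas9 and 23.9 in Cre. The lowest were MRPL45 (6.96), MRPL39 (4.19) and MRPL50 (1.74 CPM per kilobase). MRPL39 and MRPL50 are the 2 members left untested. MRPL39 had 0.831, 0.574 and 4.0 CPM in Cas9, 0.974, 0 and 0.858 CPM in Cre and 13.3, 2.04 and 19.3 CPM in Flpo, and MRPL50 had 0.831, 0.574 and 5.71 CPM in Cas9, 2.44, 0 and 0.858 CPM in Cre and 16.6, 6.13 and 19.2 CPM in Flpo. In both, every Flpo library lay above every Cre library, most of whose values were at or under the limit that a count of 0 allows.

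The clearest difference was between the recombinase groups: in Cre, 31 of the 76 tested members (40.8%) were lower than in Flpo and 0 were higher, at an adjusted p under 0.05. Of all 11905 tested genes 20.5% passed in either direction, 14.3% as lower and 6.17% as higher. The median log2 fold change of the members was -1.79, against -0.34 for all tested genes, and 67 of 76 members lay below 0 and 9 above, against 57.3% and 42.7% of all genes. At an unadjusted p under 0.05 there were 43 members, against 39.8% of all genes. Among tested members 40 were lower in every Cre library than in every Flpo library and 1 was higher; over all genes these shares were 27.9% and 15.2%, or 43.2% together. The members' median relative to that of all genes was -1.45 with TMM factors and -1.44 without them, while leaving the factors out moved the median of all genes from -0.34 to 0.44. A factor scales all genes of a library alike, so the relative median was bound to change little. Without the factors 22 members passed (28.9%, against 24.2% of all genes). The number of calls, among the members and among all genes, changed when single libraries were left out. Without Cre 2, without Cre 3 or without Flpo 1, 0 members and 0 of all genes passed. Without Flpo 3 there were 8 members (10.5%, against 3.28% of all genes tested there), without Cas9 2 there were 17 (21.8% against 10%), and without Flpo 2 there were 49 (62.8% against 44.1%). With log2 library total as a covariate 0 members and 0 of all genes passed and the members' median was 0.04, and limma voom with sample weights called 62 members, 81.6% against 67.6% of all genes. Among both the 49 and the 62, MRPL42 and MRPS33 were called higher in Cre. In all 9 fits that left out a library the 31 genes kept their direction. They were picked as lower from these same libraries, and in all but MRPL37 the Cre and Flpo libraries did not overlap. A kept direction could therefore hardly come out otherwise and is no separate support.

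**Figure D1:**
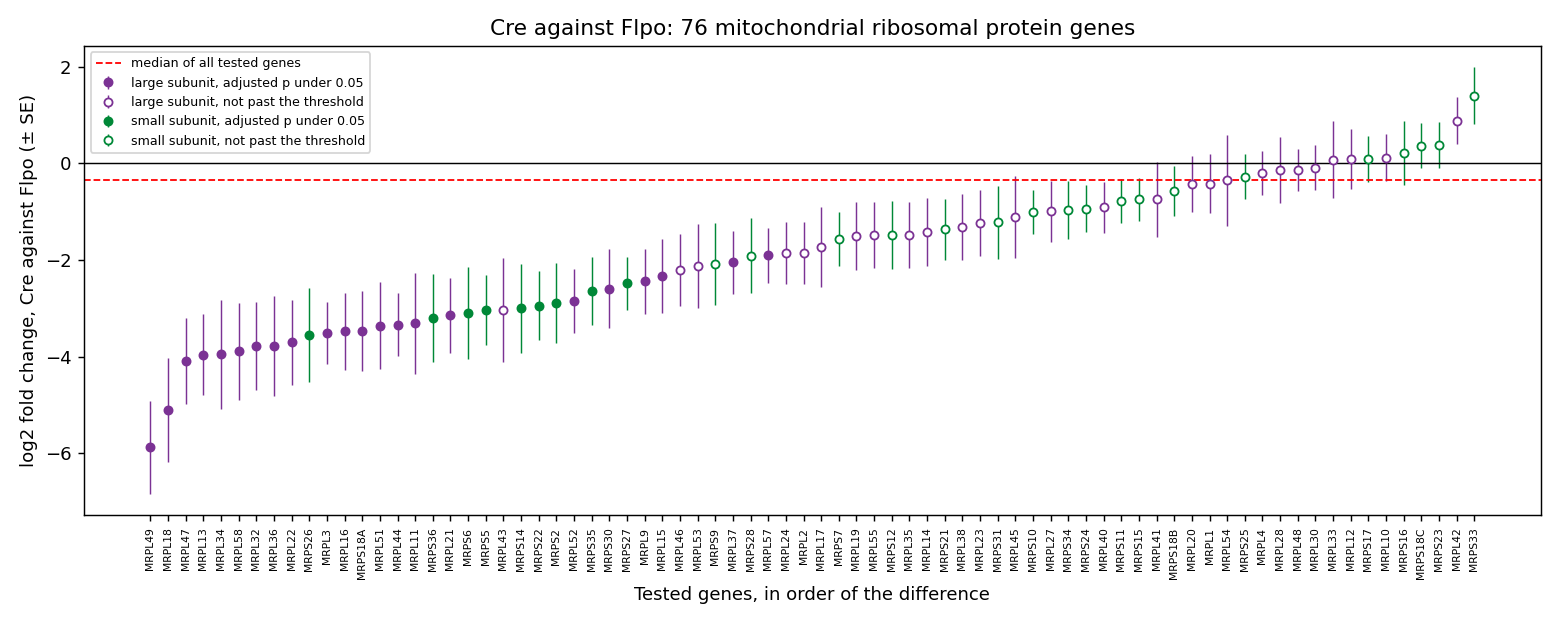
Log2 fold change of Cre against Flpo for each of the 76 tested genes, ordered from lowest to highest, with bars of 1 standard error. Filled points passed the adjusted threshold of 0.05, colours give the subunit, and the dashed line is the median of all tested genes at -0.34. The filled points run from -5.87 for MRPL49 to -1.91 for MRPL57, and every gene above 0 is an open point.

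In the large subunit 22 of 49 tested members (44.9%, against 14.3% of all genes) were lower in Cre, with a median log2 fold change of -1.91. MRPL49, a protein with no bacterial counterpart (chr11:65122183-65127371, plus strand of GRCh38), differed most. It had 8.31, 17.8 and 49.4 CPM in Cas9, 8.28, 7.47 and 21.5 CPM in Cre and 963, 175 and 1142 CPM in Flpo. Flpo 1 and 3 stood far above the other 7 libraries, and Flpo 2 was lower than both but above every Cas9 and Cre library. The group means were 25.2 ± 21.5, 12.4 ± 7.85 and 760.2 ± 514 CPM (SD, n = 3 each), and the log2 fold change of Cre against Flpo was -5.87 (SE 0.96, adjusted p = 0.0167). MRPL18 (chr6:159789812-159798436, plus strand), the counterpart of bacterial L18 in the central protuberance, had 0.831, 5.16 and 18.3 CPM in Cas9, 1.46, 0 and 3.43 CPM in Cre and 98.7, 21.5 and 91.6 CPM in Flpo. Every Flpo library was above every other library, and the log2 fold change was -5.10 (SE 1.07, adjusted p = 0.0167). Its Cre value rests on very few counts. MRPL47 (chr3:179588285-179604654, minus strand), the counterpart of bacterial L29 near the tunnel exit, had 3.32, 27.5 and 37.1 CPM in Cas9, 6.82, 0 and 2.57 CPM in Cre and 87.8, 41.9 and 83.2 CPM in Flpo. All Flpo libraries lay above all others, with a log2 fold change against Flpo of -4.09 (SE 0.89, adjusted p = 0.0173) in Cre.

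MRPL3 (chr3:131462212-131502983, minus strand), which lies close to the site of peptide bond formation, had 9.97, 16.1 and 27.7 CPM in Cas9, 7.31, 33.6 and 15.4 CPM in Cre and 181, 149.8 and 232 CPM in Flpo. The Cas9 and Cre libraries overlapped, and all 3 Flpo libraries were several times higher, including Flpo 2. Its log2 fold change of Cre against Flpo was -3.50 (SE 0.64, adjusted p = 0.0167). MRPL16 (chr11:59806135-59810872, minus strand), the counterpart of bacterial L16, had 9.97, 16.6 and 26.3 CPM in Cas9, 13.6, 0 and 12 CPM in Cre and 157, 31.4 and 152 CPM in Flpo. Here Flpo 2 was much nearer the Cas9 libraries than Flpo 1 and 3 were, and the log2 fold change was -3.47 (SE 0.79, adjusted p = 0.0186). MRPL22 (chr5:154941070-154969411, plus strand), which lines the exit tunnel, had 4.99, 24.1 and 23.7 CPM in Cas9, 7.80, 0 and 1.72 CPM in Cre and 78.3, 21.7 and 66.4 CPM in Flpo. Flpo 2 fell among the Cas9 libraries, and the Cre libraries were below every Flpo library, at a log2 fold change of -3.70 (SE 0.88, adjusted p = 0.0197). MRPL13, the counterpart of bacterial L13, had 2.49, 6.89 and 12.8 CPM in Cas9, 5.36, 7.47 and 1.72 CPM in Cre and 87.3, 22.2 and 93.7 CPM in Flpo. Only the Flpo libraries rose above 12.8 CPM, and the log2 fold change was -3.96 (SE 0.84, adjusted p = 0.0167).

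Further members of the large subunit were lower in Cre. MRPL34 (chr19:17292609-17306843, plus strand), the counterpart of bacterial L34 whose promoter is printed above, had 0.831, 8.03 and 20.6 CPM in Cas9, 5.85, 0 and 0 CPM in Cre and 67.6, 19.4 and 45.5 CPM in Flpo. It had no count in 2 Cre libraries, and its log2 fold change was -3.95 (SE 1.12, adjusted p = 0.0304). MRPL36 (chr5:1798386-1801366, minus strand), the counterpart of bacterial L36, had 5.82, 9.18 and 30.6 CPM in Cas9, 2.92, 7.47 and 0 CPM in Cre and 43.3, 15.6 and 42.9 CPM in Flpo. Flpo 2 lay between the Cas9 libraries, and the log2 fold change was -3.78 (SE 1.03, adjusted p = 0.0268). MRPL32 (chr7:42932200-42948958, plus strand), which a protease of the inner membrane cuts to its mature form, had 1.66, 7.46 and 12 CPM in Cas9, 1.95, 7.47 and 2.57 CPM in Cre and 54.5, 14.1 and 56 CPM in Flpo. Its Flpo values were above all others, at a log2 fold change of -3.78 (SE 0.90, adjusted p = 0.0198). Among members with further roles, MRPL58 (chr17:75012670-75021261, plus strand), a hydrolase that frees stalled chains, had 0.831, 6.31 and 16 CPM in Cas9, 1.95, 0 and 1.72 CPM in Cre and 32.3, 11.2 and 30.3 CPM in Flpo. The Flpo libraries were higher than the Cre libraries without overlap, and the log2 fold change was -3.89 (SE 1.01, adjusted p = 0.0235). MRPL44 (chr2:223957404-223967714, plus strand), which resembles an RNA-cutting enzyme, had 19.9, 25.8 and 84.5 CPM in Cas9, 10.2, 14.9 and 16.3 CPM in Cre and 187, 96.1 and 128 CPM in Flpo. Each Cre library was below each Cas9 library and each Flpo library, and the log2 fold change against Flpo was -3.34 (SE 0.65, adjusted p = 0.0167).

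Other large-subunit members did not pass. MRPL12 (chr17:81703357-81707526, plus strand), the counterpart of the bacterial stalk protein L7/L12 that calls in translation factors, had 258, 149.8 and 178 CPM in Cas9, 245, 37.3 and 209 CPM in Cre and 226, 104 and 142 CPM in Flpo. Only Cre 2 stood apart, below the rest, and the log2 fold change of Cre against Flpo was 0.08 (SE 0.62, adjusted p = 0.93). MRPL45 (chr17:38297023-38323218, plus strand), at the tunnel exit toward the inner membrane, had 1.66, 13.2 and 7.42 CPM in Cas9, 16.1, 0 and 6.01 CPM in Cre and 25.2, 8.18 and 24.3 CPM in Flpo. The groups overlapped, with a log2 fold change of -1.11 (SE 0.85, adjusted p = 0.332). The other called members of the large subunit, MRPS18A, MRPL51, MRPL11, MRPL21, MRPL52, MRPS30, MRPL9, MRPL15, MRPL37 and MRPL57, lay between -3.47 and -1.91. Of these only MRPL37 had overlapping Cre and Flpo libraries.

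In the small subunit 9 of 27 members (33.3%, against 14.3% of all genes) were lower in Cre than in Flpo, with a median log2 fold change of -1.37. MRPS26 (chr20:3045945-3048254, plus strand), a protein without a bacterial counterpart, had 2.49, 25.2 and 32.3 CPM in Cas9, 6.82, 0 and 0.858 CPM in Cre and 45, 21 and 59.4 CPM in Flpo. Cre 2 had no count and Cre 3 a single count, and the log2 fold change was -3.55 (SE 0.98, adjusted p = 0.0284). MRPS27 (chr5:72219409-72320646, minus strand), a protein of RNA-binding pentatricopeptide repeats, had 47.4, 36.1 and 63.4 CPM in Cas9, 41.4, 63.5 and 98.7 CPM in Cre and 461, 215 and 464 CPM in Flpo. It was named after its values were seen, as the member nearest to the threshold of Flpo against Cas9. All 3 Flpo libraries stood above the other 6, which overlapped, and the log2 fold change of Cre against Flpo was -2.48 (SE 0.55, adjusted p = 0.0177). MRPS36 (chr5:69217760-69230129, plus strand) had 0.831, 9.18 and 10.3 CPM in Cas9, 1.95, 0 and 2.57 CPM in Cre and 18.3, 12 and 24.1 CPM in Flpo. Its Flpo libraries were the highest, at a log2 fold change of -3.21 (SE 0.91, adjusted p = 0.0307). MRPS5, chosen after its values were seen, broke the order of the Flpo libraries, with 41.5, 59.1 and 90.8 CPM in Cas9, 56.5, 18.7 and 12.9 CPM in Cre and 133, 487 and 138 CPM in Flpo. Flpo 2 was the highest library here, where in the called members described so far it was the lowest of the 3, and the log2 fold change was -3.04 (SE 0.72, adjusted p = 0.0197). The remaining called members were MRPS6, MRPS14, MRPS22, MRPS2 and MRPS35, between -3.09 and -2.65.

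Of the 3 forms of MRPS18, MRPS18A passed in Cre against Flpo and the others did not. MRPS18B and MRPS18C belong to the small subunit and MRPS18A to the large. MRPS18A (chr6:43671303-43687791, minus strand; promoter printed above) had 8.31, 8.03 and 31.7 CPM in Cas9, 7.80, 0 and 4.29 CPM in Cre and 80.9, 27.1 and 63.5 CPM in Flpo. All its Cre values were below all Cas9 and Flpo values, and the log2 fold change of Cre against Flpo was -3.47 (SE 0.82, adjusted p = 0.0195). Its count of 0 in Cre 2 allows up to 11.2 CPM, which is above its values in Cas9 1 and 2. MRPS18B (chr6:30617709-30626395, plus strand) had 230.2, 283 and 273 CPM in Cas9, 254, 85.9 and 158 CPM in Cre and 324, 179.7 and 240.3 CPM in Flpo. Its groups overlapped, at -0.57 (SE 0.52, adjusted p = 0.42). MRPS18C (chr4:83455932-83469735, plus strand) had 96.4, 72.9 and 57.7 CPM in Cas9, 63.3, 105 and 112 CPM in Cre and 66.8, 97.9 and 52.4 CPM in Flpo. These overlapped as well, at 0.36 (SE 0.46, adjusted p = 0.57). Whether the forms differed from each other in their change was not tested.

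No member passed as higher in Cre than in Flpo. The highest value was that of MRPS33 (chr7:141002610-141015228, minus strand), a small-subunit protein without a bacterial counterpart, which had 194, 146 and 84.2 CPM in Cas9, 158, 243 and 300.3 CPM in Cre and 61.2, 161 and 43.9 CPM in Flpo. Flpo 2 lay among the Cas9 and Cre libraries and the other Flpo libraries below them, and the log2 fold change was 1.40 (SE 0.58, adjusted p = 0.0959). MRPL42 (chr12:93467488-93516213, plus strand) was the only member whose Cre libraries all lay above the Flpo libraries, with 190.3, 125 and 99.4 CPM in Cas9, 179, 194 and 214 CPM in Cre and 87, 157 and 75.4 CPM in Flpo. Its log2 fold change was 0.88 (SE 0.48, adjusted p = 0.185). Both passed without TMM factors, at 2.16 for MRPS33 (adjusted p = 0.034) and 1.64 for MRPL42 (adjusted p = 0.0455), and without Flpo 2, at 2.15 and 1.27. MRPS33 alone also passed in DESeq2, at 1.45 (adjusted p = 0.0414). In limma voom with sample weights both passed, at 2.12 for MRPS33 (adjusted p = 2.9e-05) and 1.24 for MRPL42 (adjusted p = 0.00133). That fit called 67.6% of all genes. MRPS23 (chr17:57834781-57850056, minus strand), next in order, had 96.4, 60.2 and 59.4 CPM in Cas9, 73.1, 138 and 182 CPM in Cre and 112, 81.8 and 109 CPM in Flpo and a log2 fold change of 0.37 (SE 0.48, adjusted p = 0.569).

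**Figure D2:**
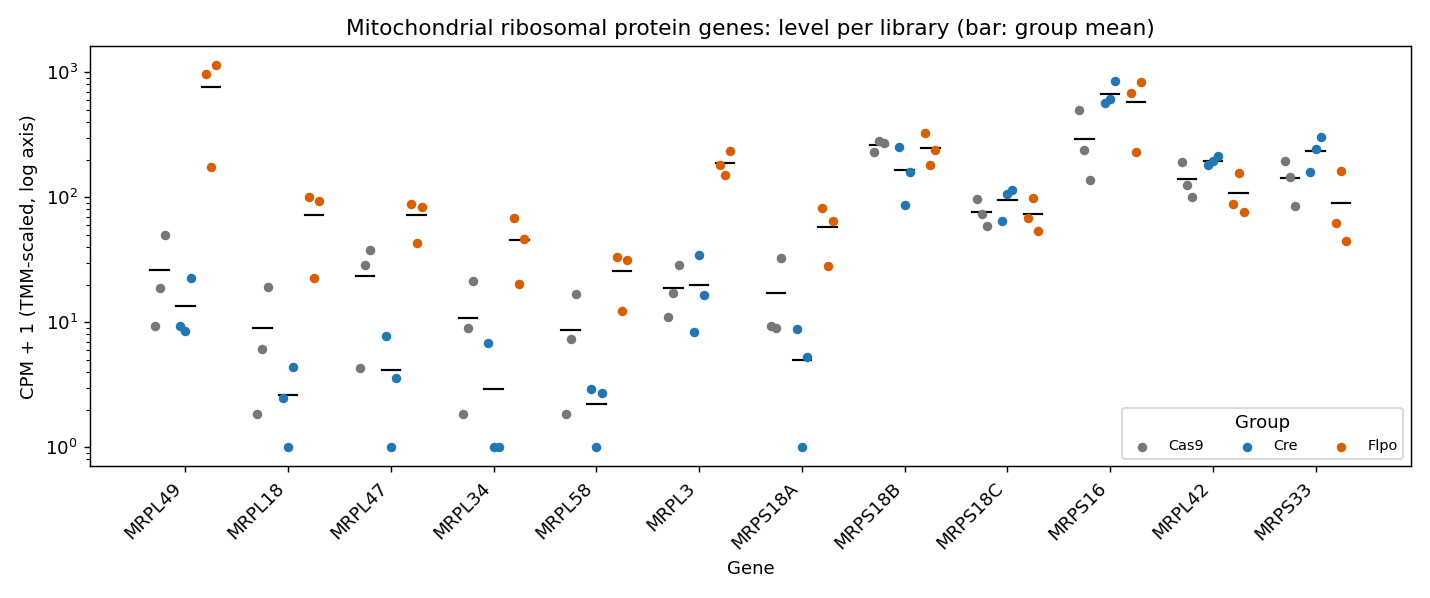
Level of 12 genes in each library, as TMM-scaled CPM plus 1 on a log axis, with 1 point per library coloured by group and a bar at the group mean. Every Flpo point of MRPL49, MRPL18, MRPL47 and MRPL3 is above every other point, with MRPL18 at 21.5 CPM in Flpo 2 against 18.3 CPM in Cas9 3 and MRPL47 at 41.9 against 37.1 CPM in the same libraries, while MRPS18B, MRPS18C, MRPS16, MRPL42 and MRPS33 are at or above 43.9 CPM in all 9 libraries.

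Against Cas9 alone, 2 of 76 members were higher in Flpo past the threshold, MRPL49 and MRPL3, and 0 were lower. The share of all tested genes past it was 0.227%, with 0.218% as higher and 0.0084% as lower. The values of MRPL49 and MRPL3 are given above, and all 3 Flpo libraries of each lay above all Cas9 libraries. Every Cas9 total also lay below every Flpo total, so depth and group cannot be told apart here. The log2 fold change of Flpo against Cas9 was 4.89 (SE 0.90, adjusted p = 0.0464) for MRPL49 and 3.36 (SE 0.61, adjusted p = 0.0437) for MRPL3. The members' median was 0.98 against 0.05 for all genes, and 66 of 76 lay above 0, against 51.7% of all genes. At an unadjusted p under 0.05 there were 23 members, against 20% of all genes. The groups did not overlap for 18 tested members, all higher in Flpo, against 25% of all genes in either direction and 12.8% as higher. MRPL13 had the next highest value at 3.12 (SE 0.74, adjusted p = 0.0692), and MRPS27 missed the threshold at 2.95 (SE 0.56, adjusted p = 0.0512). The lowest values were those of MRPS33 at -0.67, MRPL54 at -0.59 and MRPL41 at -0.49, with adjusted p of 0.528, 0.746 and 0.747. MRPL54 had 28.3, 26.4 and 22 CPM in Cas9, 32.6, 0 and 0.858 CPM in Cre and 19.8, 6.13 and 24.7 CPM in Flpo, and MRPL41 had 83.1, 94.1 and 138 CPM in Cas9, 107, 3.73 and 14.6 CPM in Cre and 109.7, 47.5 and 68.3 CPM in Flpo. In both, Cre 2 and 3 and Flpo 2 were the low libraries. Leaving out any library other than Cas9 3 changed the count of calls, to 1 without Cre 1, to 17 without Flpo 2 and to 0 without each of the rest. The count was 0 without TMM factors, in a fit of these 6 libraries alone and with library total as a covariate, where the median was -0.34, and 57 in limma voom with sample weights (75%, against 61% of all genes). In that voom fit MRPS33 was called lower in Flpo, at -1.21 (adjusted p = 0.000538). The 17 members without Flpo 2 were 21.8% of those tested, near the 21.3% of all genes.

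Against Cas9 alone, 0 of 76 members differed in Cre at the adjusted threshold in edgeR, where 0% of all tested genes passed. DESeq2 also called 0 members, and limma voom with sample weights called 33, of which 28 were lower (43.4%, against 33.3% of all genes). At an unadjusted p under 0.05 edgeR had 11 members, against 7.38% of all genes. The median log2 fold change was -0.84 against -0.22 for all genes, and 61 of 76 lay below 0, against 58.4% of all genes. Among tested members 2 were higher and 4 lower without overlap of the groups, which held for 9.83% of all genes, 3.46% as higher and 6.37% as lower. The members higher in every Cre library were MRPS16 and MRPL10, and those lower were MRPL44, MRPL52, MRPS18A and MRPS22. MRPS18A and MRPS22 had no count in Cre 2, which allows up to 11.2 CPM, above their Cas9 1 values. MRPS16 (chr10:73248843-73252693, minus strand), the counterpart of bacterial S16 and the member with the most counts in the Cre libraries, had 500.2, 236 and 136 CPM in Cas9, 566, 612 and 848 CPM in Cre and 688, 228 and 830.2 CPM in Flpo. The Cre libraries were above all Cas9 libraries, and the log2 fold change was 1.22 (SE 0.67, adjusted p = 0.619). The lowest values among well-counted members were those of MRPL11, the counterpart of bacterial L11, at -2.10 (SE 1.02, adjusted p = 0.619), MRPL51 at -1.78 (SE 0.85, adjusted p = 0.619) and MRPL44 at -1.70 (SE 0.63, adjusted p = 0.619). MRPL11 had 5.82, 54.5 and 59.1 CPM in Cas9, 18.5, 7.47 and 0 CPM in Cre and 135, 40.6 and 103 CPM in Flpo, and MRPL51 had 9.97, 95.2 and 123 CPM in Cas9, 43.4, 11.2 and 7.72 CPM in Cre and 321, 107 and 257 CPM in Flpo. In both, Cas9 1 lay within the range of the Cre libraries.

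**Figure D3:**
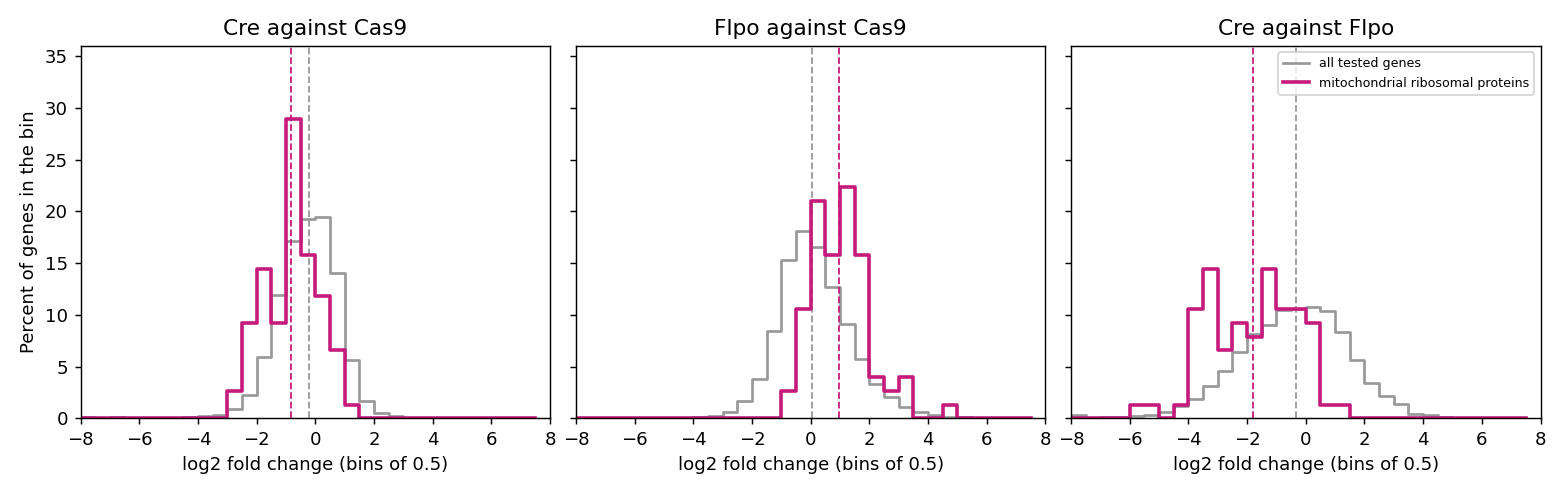
Percent of genes in each bin of 0.5 log2 fold change, for the 76 members and for all 11905 tested genes, in the 3 comparisons, with dashed lines at the medians and values beyond 8 either way placed at the ends. The medians of the members lie at -0.84, 0.98 and -1.79 and those of all genes at -0.22, 0.05 and -0.34. The comparisons share libraries, so the panels are not independent.

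Groups of members set by origin or by sequence were compared by their counts. Among members with a bacterial counterpart 18 of 48 (37.5%) were lower in Cre than in Flpo (median -1.53), and among those without 13 of 28 (46.4%, median -2.09). Of all tested genes 14.3% were lower, with a median of -0.34 over all of them. The ratio of large-subunit to small-subunit counts within a library was 0.956, 1.11 and 1.36 in Cas9 1 to 3, 1.01, 0.489 and 0.664 in Cre, and 1.54, 0.963 and 1.46 in Flpo. Cre 2 and 3 had the lowest ratios, but Cre 1 lay within both other groups. The order of the groups depended on the members counted. Over all members the mean ratio was 1.14 in Cas9, 0.722 in Cre and 1.32 in Flpo. Over the 19 with at least 10 counts in every library it was 0.596, 0.478 and 0.381, lowest in Flpo. Because 59 of the 78 had under 10 counts in Cre 2, that rule keeps members that were high there. The changed order therefore cannot be read as a result about the groups.

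The difference varied with how much of a transcript is repeated in other genes. The repeated share is the percent of a gene's sequence words of 24 bases that also occur in transcripts of at least 10 other genes. With a repeated share of 0, 18 of 33 members were lower in Cre than in Flpo and the median was -2.44. With a share above 0 and under 5%, 10 of 27 were lower and the median was -1.57. With a share of 5% or more, 3 of 16 were lower, and their median of -0.35 was close to the -0.34 of all genes. Across the 76 members the share and the log2 fold change had a Spearman correlation of 0.47. For Cre against Cas9, which shares the Cre libraries, it was 0.58, and for Flpo against Cas9 it was -0.22. The points share their libraries and depth, and the log2 mean level itself had a correlation of 0.43 with the difference of Cre against Flpo, while GC content had 0.07 and transcript length 0.05. The 35 members without repeated words summed to 1337 ± 482 CPM in Cas9, 651 ± 533 CPM in Cre and 2402 ± 1062 CPM in Flpo. The 16 with a share of 5% or more summed to 1732 ± 156, 2103 ± 284 and 2450.1 ± 578 CPM (SD, n = 3 each). Of the 35 without repeated words, 34 had under 10 counts in Cre 2 and 25 in Cre 3, against 5 and 0 of these 16. By mean level, 19 of 37 tested members in the lower 39 were lower in Cre than in Flpo (median -2.44). In the upper 39 there were 12 (median -0.97). The part of level in the difference by repeated share was not tested.

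Members were also divided by how their reads had been assigned. Salmon, the counting tool named in the submitters' processing notes, divides a read that fits several transcripts, which gives counts that are not whole. Of 28 tested members whose count was whole (within 0.01) in every library that had one, 17 were lower in Cre than in Flpo, with a median of -2.77 and 0 above 0. Of the 48 others 14 were lower, with a median of -1.18, and all 9 members above 0 were among them. The 21 of these whose count was not whole in any library had 8 lower members (38.1%, against 29.2% of the 48) and a median of -1.01, so the share called did not fall steadily. All 30 members with whole counts, tested or not, had under 10 counts in Cre 2, and 22 of them in Cre 3. The part of shared reads or of level in these differences was not tested.

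**Figure D4:**
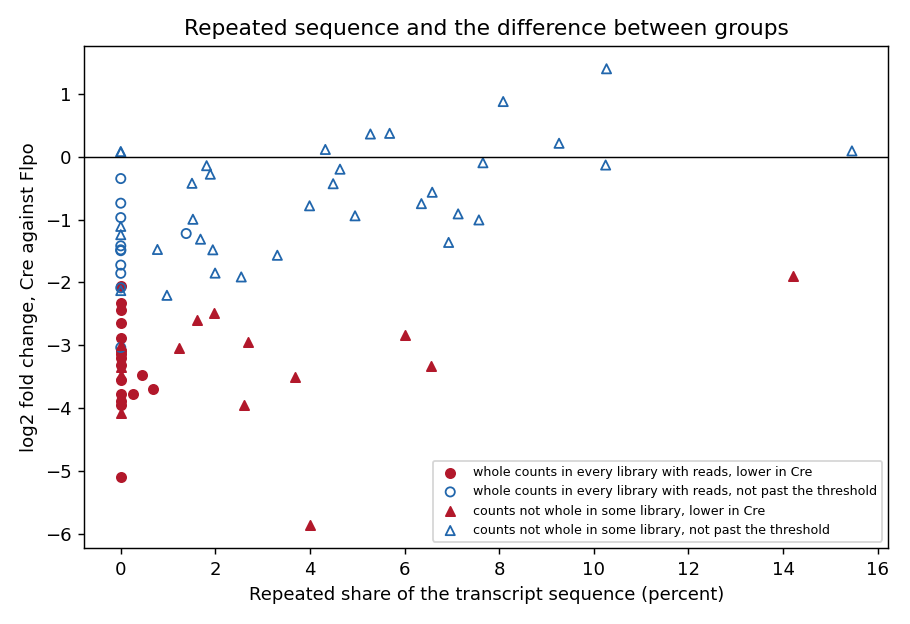
Repeated share of the transcript sequence in percent, across, against the log2 fold change of Cre against Flpo for the 76 tested genes. Filled points passed the threshold, circles have whole counts in every library with reads, and triangles do not. The 3 filled points at 5% or more lie between -3.34 and -1.91, and 6 of the 9 points above 0 have a share of 5% or more.

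Some members have pseudogenes, found here by symbol, or overlapping neighbours. MRPS17 (chr7:55951819-55956501, plus strand), the counterpart of bacterial S17, had 118, 79.2 and 85.1 CPM in Cas9, 74.1, 187 and 157 CPM in Cre and 137, 139.8 and 111 CPM in Flpo, with a log2 fold change of Cre against Flpo of 0.09 (SE 0.47, adjusted p = 0.896). Its pseudogene MRPS17P1 had 164, 67.1 and 42.8 CPM in Cas9, 130.1, 231 and 269 CPM in Cre and 13.3, 108 and 9.10 CPM in Flpo. The pseudogene was lowest in Flpo 1 and 3 and highest in Cre 2 and 3, at 2.28 (SE 0.86, adjusted p = 0.0722). MRPL45P2, a copy of MRPL45, had 36.6, 24.7 and 10.6 CPM in Cas9, 48.2, 41.1 and 61.8 CPM in Cre and 10.4, 13 and 7.66 CPM in Flpo. It was higher in every Cre library than in every Cas9 or Flpo library and passed the threshold against Flpo, at 2.30 (SE 0.57, adjusted p = 0.021), where MRPL45 itself had -1.11. MRPS31 (chr13:40729135-40771173, minus strand; promoter printed above) and MRPS31P5 did not pass, at -1.22 (SE 0.76, adjusted p = 0.236) and -0.51 (SE 0.58, adjusted p = 0.519). Reads of a gene and of its copy cannot be told apart where the sequences are the same, so these values are uncertain. On the opposite strand MRPL49 overlaps exons of FAU and SYVN1, and the use of strand is not given in the sources used here. FAU, which encodes a cytosolic ribosomal protein, had 106, 431 and 495 CPM in Cas9, 340.1, 63.5 and 142 CPM in Cre and 991, 326 and 709 CPM in Flpo. Its Flpo 1 and 3 values were high like those of MRPL49, but its Cas9 and Flpo libraries overlapped, and the log2 fold change was -1.88 (SE 0.77, adjusted p = 0.0899). SYVN1 had at most 20.1 CPM, much lower than MRPL49 in Flpo, where MRPL49 had 963, 175 and 1142 CPM. In Cas9 and Cre MRPL49 itself had between 7.47 and 49.4 CPM, so there the 2 genes were not far apart. Of the 29 members with such an overlap 15 (51.7%) were lower in Cre than in Flpo, and of the 47 tested without 16 (34%), against 14.3% of all genes.

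**Figure D5:**
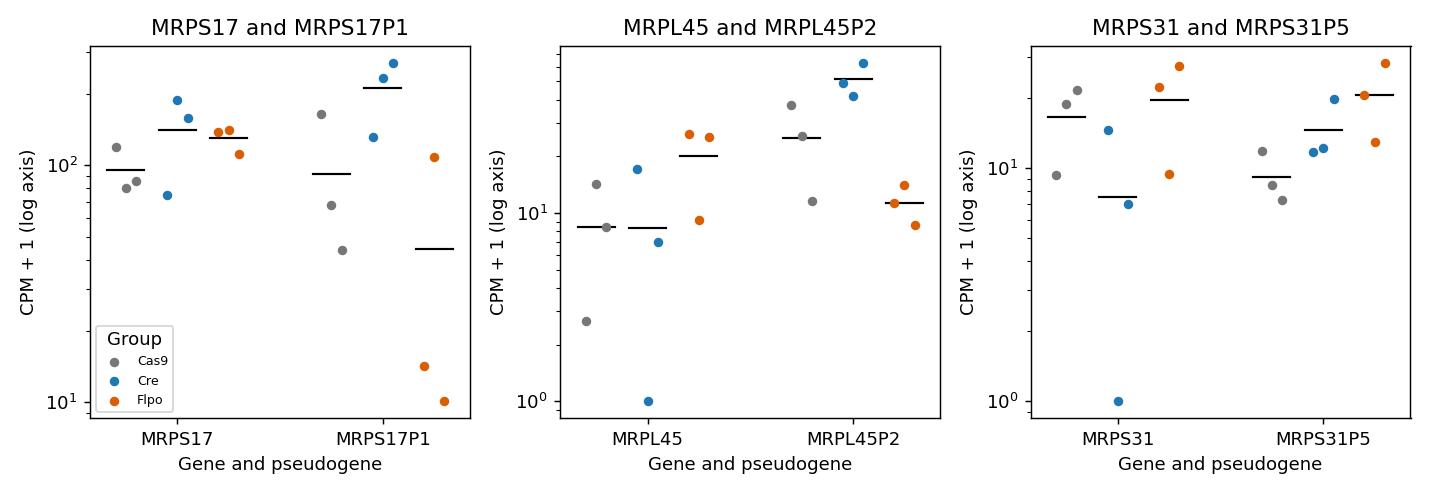
Level in each library, as TMM-scaled CPM plus 1 on log axes, of 3 genes and a pseudogene of each, coloured by group with bars at the group means. MRPS17P1 and MRPL45P2 have their lowest values in Flpo, while MRPL45 has a mean of 19.2 CPM in Flpo and 7.36 CPM in Cre.

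Genes that serve the mitochondrial ribosome were read from the same fits. None of them passed in Cre against Cas9 or in Flpo against Cas9, and the counts that follow are for Cre against Flpo, where 14.3% of all tested genes were lower and 6.17% higher. The 5 mitoribosomal proteins with other symbols had 0 calls, with values from -1.71 for CHCHD1 through -1.52 for DAP3, a GTP-binding protein of the small subunit, -0.87 for AURKAIP1 and -0.26 for GADD45GIP1 to 0.30 for PTCD3, and adjusted p of 0.11, 0.076, 0.376, 0.793 and 0.647. Of 24 tested assembly factors 4 (16.7%) were lower and 0 higher, near the 14.3% of all genes that were lower. They were MTERF4, which works with the methyltransferase NSUN4, at -2.38 (SE 0.77, adjusted p = 0.0453), the helicase DHX30 at -1.99 (SE 0.57, adjusted p = 0.032), the ribosomal RNA methyltransferase MRM2 at -2.02 (SE 0.65, adjusted p = 0.0439) and MIEF1 at -1.87 (SE 0.48, adjusted p = 0.0235). The median of the 24 was -0.40, close to the -0.34 of all genes. MRM2 had 21.6, 23 and 40.8 CPM in Cas9, 40.9, 22.4 and 19.7 CPM in Cre and 153, 29.6 and 163 CPM in Flpo, with Flpo 1 and 3 high and Flpo 2 inside the range of Cre.

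Of 15 tested translation factors 3 were lower and 1 was higher, or 26.7% against 20.5% of all genes, with a median of -0.78. TSFM, the exchange factor of the elongation factor TUFM, had 1.66, 27.5 and 17.7 CPM in Cas9, 5.85, 7.47 and 2.57 CPM in Cre and 85.7, 20.2 and 78.5 CPM in Flpo and a log2 fold change of -3.65 (SE 0.93, adjusted p = 0.0227). TUFM itself had -2.83 (SE 0.82, adjusted p = 0.0318) and the RNA-binding protein SLIRP -2.27 (SE 0.62, adjusted p = 0.0274). In TSFM, Flpo 2 was inside the range of Cas9, and Flpo 1 and 3 stood apart. GFM1, the elongation factor that moves the ribosome along, went the other way, with 134, 94.7 and 58.8 CPM in Cas9, 109, 164 and 234 CPM in Cre and 35, 79.7 and 27.9 CPM in Flpo. Each Cre library was above each Flpo library, at 1.83 (SE 0.56, adjusted p = 0.0375). Of 4 tested genes of mitochondrial transcription, TFAM, which packs mitochondrial DNA and starts its transcription, was the only call. It had 9.97, 26.4 and 29.1 CPM in Cas9, 8.28, 0 and 4.29 CPM in Cre and 68, 39.4 and 70.9 CPM in Flpo, with Cre below Cas9 and Cas9 below Flpo in every library, and a log2 fold change of -3.47 (SE 0.71, adjusted p = 0.0167). The polymerase POLRMT had 0.14, TEFM -2.21 and MTERF2 -1.36, with adjusted p of 0.896, 0.0573 and 0.205, and TFB2M and MTERF1 were not tested.

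Of 6 tested regulators of nuclear mitochondrial genes 2 were lower (33.3%, against 14.3% of all genes). The nuclear receptor ESRRA had 1.66, 1.72 and 11.4 CPM in Cas9, 0.974, 0 and 0 CPM in Cre and 15.5, 7.41 and 31.5 CPM in Flpo and a log2 fold change of -4.98 (SE 1.24, adjusted p = 0.0211). MYC had 4.99, 1.72 and 4.85 CPM in Cas9, 0.487, 0 and 2.57 CPM in Cre and 36.1, 6.13 and 65.9 CPM in Flpo and -4.86 (SE 1.09, adjusted p = 0.0182). Both were at a few CPM or less in every Cre library, and Flpo 2 was the lowest Flpo library in each. Of 26 import genes 9 were lower (34.6%, against 14.3% of all genes) and 0 higher, with a median of -2.06. The lowest were TOMM5, a small part of the outer membrane channel, at -5.21 (SE 1.22, adjusted p = 0.0194), TIMM8B, a carrier of the space between the membranes, at -4.03 (SE 0.78, adjusted p = 0.0167), TOMM6 at -3.04 (SE 0.90, adjusted p = 0.0343) and TOMM34 at -3.02 (SE 0.73, adjusted p = 0.0202). TOMM5 had 0, 43 and 49.4 CPM in Cas9, 7.80, 0 and 2.57 CPM in Cre and 242, 58.3 and 212 CPM in Flpo. It had no count in Cas9 1, as in Cre 2, and every Flpo library was above all others. The mitochondrial ribosomal RNAs are not analysed here.

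Markers of other cells moved in the same comparison. Of the 6 fibroblast genes 4 were tested, and COL1A1, COL1A2 and COL3A1, collagen chains, were higher in Cre than in Flpo, at 3.19 (SE 0.83, adjusted p = 0.0243), 3.47 (SE 0.96, adjusted p = 0.0287) and 3.04 (SE 0.75, adjusted p = 0.021). The other tested gene of the list had 1.84 and did not pass. Over all 6, tested or not, 3 were higher in every Cre library than in every Flpo library and 1 was lower. The 6 genes summed to 550.1, 6484 and 1381 CPM in Cre 1 to 3, to between 264 and 893 CPM in Cas9 and to between 253 and 327 CPM in Flpo. Cre 2, the library with the fewest counts, was by far the highest, while DCN and LUM there had 44.8 and 14.9 CPM and PDGFRA had no count. In the other direction KRT8 and KRT18 were lower in Cre, at -3.36 (SE 0.80, adjusted p = 0.0199) and -4.42 (SE 0.83, adjusted p = 0.0167). The other 3 tested genes of the 8 in the HEK293 list had values above 0 and did not pass, at 1.62 for NEFL, 0.87 for SALL4 and 0.23 for VIM (adjusted p = 0.0501, 0.262 and 0.815). The 8 genes summed to between 529 and 1124 CPM in Cre, between 593 and 1375 CPM in Cas9 and between 1582 and 5359 CPM in Flpo. The 6 blood genes summed to between 40.4 and 253 CPM, nearly all of it LYZ, and CD3E had no count in any library. The part of other cells in the differences of the members was not tested.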

How the data were processed

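RNA sequencing was done on 9 HEK293 libraries made with a TruSeq kit after TRIzol extraction, per the labels' protocols. The authors deposited 1 table of estimated counts per gene symbol, not normalized; the submitters' processing notes name Salmon 0.14.1 and hg38, while the annotation, the step from transcripts to genes and the use of strand are not given in the sources used here. Values that were not whole made up 43.3% to 57.1% of the nonzero entries per library. The design had assumed whole counts, so estimated counts were rounded. The members and gene lists were chosen with earlier results of these data known.

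All 9 libraries were fitted together in R 4.3.3 with edgeR 4.0.16, using the quasi-likelihood test, TMM factors and the package's default filter (minimum count 10, minimum total 15), which left 11905 genes. Adjusted p-values are Benjamini-Hochberg values over all of them, with a threshold of 0.05. Standard errors are the absolute log2 fold change over the square root of F. The comparisons share libraries. Text named up to 12 members past the threshold in each direction, the 3 highest and 3 lowest with a mean of at least 50 counts, members with a particular role, and the lists' strongest calls; others are said to have been chosen after their values were seen. Alternatives used DESeq2 1.42.0, limma 3.58.1 (voom with sample weights), other filters and scalings, 6 libraries, a replicate block, a depth covariate and each library left out. The limit that a count of 0 allows, 3 counts, covers counting error only. The code was tested on simulated data. Gene coordinates, lengths and repeated words are from GENCODE release 29 (GRCh38), matched by symbol. Promoters are RefSeq's (GRCh38.p14), and 9 members had none in the table.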

Additional observations from a re-analysis of the deposited data

Results flagged for a closer look

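The effects of Cre and of Flpo against the shared Cas9 libraries differed, by the direct test of Cre against Flpo, in 31 of the 76 tested members. All 31 were lower in Cre, and 20.5% of all tested genes passed the same test, 14.3% as lower and 6.17% as higher. Every Cre total lay below every Flpo total, so depth and group cannot be told apart here. Without Cre 2, without Cre 3 or without Flpo 1, 0 members passed. The median member had a log2 fold change of -0.84 in Cre against Cas9 and 0.98 in Flpo against Cas9, and the same Cas9 libraries stand in both.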

How the results depend on the processing

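For Cre against Flpo the main fit called 31 members, all lower in Cre. DESeq2 called 39 (50%, against 16.1% of all genes) and edgeR without a filter on low counts 39 (50% against 14.2%). The stricter filter called 28 (39.4% against 23.5%) and only the 6 libraries compared 28 (36.4% against 16.9%). The replicate block called 23 (30.3% against 13.2%). Without TMM factors there were 22 (28.9%, near the 24.2% of all genes). These were 20 of the 31, with MRPS33 and MRPL42 as higher in Cre. MRPS33 was also called higher in DESeq2. In all these settings the 31 kept their direction wherever tested, but they were picked from the same libraries, so this is no separate support. With log2 library total as a covariate 0 members passed (2 at an unadjusted p under 0.05), 26 of the 31 kept their direction, the median turned to 0.040, and MRPL34, MRPL58 and MRPS26 turned to 1.13, 0.33 and 0.54. With that covariate 0 of all tested genes passed as well. Limma voom with sample weights called 62 for Cre against Flpo, 57 for Flpo against Cas9 and 33 for Cre against Cas9, beside 67.6%, 61% and 33.3% of all genes. Leaving out 1 library gave between 0 and 49 members for Cre against Flpo and between 0 and 17 for Flpo against Cas9. Where Cre against Flpo gave 0, between 32 and 38 members had an unadjusted p under 0.05. The share of all genes under it is not given here for those fits. It was 39.8% in the main fit, so these counts are not read as a result about the members. For Flpo against Cas9 DESeq2 called 7 (MRPL3, MRPL13, MRPL16, MRPL18, MRPL32, MRPL49 and MRPS27) and edgeR without a filter 8, the same with MRPS5, beside 4.29% and 4.6% of all genes. The count was 0 without TMM factors, with the stricter filter, with only 6 libraries, with the replicate block and with the covariate, where the median turned to -0.34. For Cre against Cas9 every setting other than voom gave 0. The cause of these changes was not tested. The replicate numbers did not pair the libraries: their deviations correlated between -0.55 and 0.53, and a library correlated best with its own number in 4 of 18 cases. With only the 19 members that had at least 10 counts in every library, the share of counts was 0.233%, 0.339% and 0.214% in Cas9, Cre and Flpo. The ratio of large-subunit to small-subunit counts over them was 0.596 in Cas9, 0.478 in Cre and 0.381 in Flpo. Cre 2, where 59 of the 78 members had under 10 counts, sets this choice, so neither order can be read as a result about the groups. Depth limits the Cre values most, where a count of 0 allowed up to 11.2 CPM in Cre 2.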
